A study of Mus musculus with 20 samples.

Results

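The genes described here are Clca4a and Clca4b, 2 of the 12701 genes in a table of read counts from the mouse proximal colon (PC). The pair was chosen by its variation between libraries and by the correlation of the genes with each other, so these features are given as description, without a test. The increase of Clca4b at 5% RPS was also known when the pair was chosen. RNA was sequenced from a segment of the PC of 20 C57BL/6 mice, 1 library per mouse and 5 libraries per diet. All mice ate the Total Western Diet (TWD), whose nutrients follow the average intake in America, for 6 weeks from weaning at 3 to 4 weeks of age. For 3 more weeks they then received the TWD alone (0% RPS) or the TWD with 2, 5, or 10% raw potato starch (RPS), a resistant starch that bacteria of the cecum and colon ferment. Each group is a set of individual mice of 1 inbred strain, and the RNA came from an undivided segment, in which epithelium, muscle, and other cells are mixed.

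CLCA proteins were named as calcium-activated chloride channel accessory proteins. They are not channels themselves but secreted or membrane-anchored proteins that cut themselves by a built-in metalloprotease activity, and some of them raise the activity of the chloride channel Ano1. In the mouse, Clca4a encodes a membrane-anchored member found on the apical surface of intestinal enterocytes other than goblet cells, while its neighbour Clca1 is secreted by goblet cells as part of the mucus. Much less is known of Clca4b, a close copy of Clca4a.

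Both genes lie on the minus strand of chromosome 3 of GRCm39, within a cluster of CLCA genes. Clca4a (ENSMUSG00000068547) spans chr3:144658241-144680806 and Clca4b (ENSMUSG00000074195) spans chr3:144616682-144638290. Clca1 follows Clca4a on one side, and the pseudogenes Clca4c-ps and ENSMUSG00000074196, Clca3b, Clca3a2, and Clca3a1 follow Clca4b on the other. The transcripts of both genes in GENCODE M39 had 14 exons and a coding length of 2775 bases, and all 14 coding exons had equal lengths in both. The coding sequences were 96.0% identical, with 110 mismatches and 0 gaps, and the identity of single coding exons ranged from 92.5% in exon 14 to 99.1% in exon 9. Clca4a is overlapped on the opposite strand by the noncoding genes Gm16233, Gm65337, and Gm35066, which were not analysed here.

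Single reads of 50 bases were counted, so the likeness of the 2 transcripts sets how far a read can be placed in either gene. The longest run that both coding sequences share is 168 bases in coding exons 8 and 9, at chr3:144666405-144667691 in Clca4a and at chr3:144625044-144627691 in Clca4b with the intron included. It is shown, from the transcripts of GENCODE M39, because no read within it can be assigned to either gene by sequence. 
Clca4a and Clca4b, shared run: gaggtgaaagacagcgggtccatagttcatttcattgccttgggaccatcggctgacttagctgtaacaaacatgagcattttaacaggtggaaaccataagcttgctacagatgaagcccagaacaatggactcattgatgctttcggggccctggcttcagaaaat
The 50-base stretch of a single coding exon with the most differences, 9, is in exon 5, at chr3:144674107-144674156 in Clca4a and chr3:144631877-144631926 in Clca4b. It is shown because reads there tell the genes apart best, and the bases that differ are in capitals.
Clca4a, exon 5: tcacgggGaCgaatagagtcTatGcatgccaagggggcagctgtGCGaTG
Clca4b, exon 5: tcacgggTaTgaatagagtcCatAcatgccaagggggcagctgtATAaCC
Of the 50-base windows of each transcript, 619 were found in the other gene, which is 20.9% of 2955 windows in Clca4a and 21.0% of 2948 in Clca4b. With the pseudogene ENSMUSG00000074196 and Clca4c-ps included, 37.1% of the windows of Clca4a and 24.8% of those of Clca4b occurred in another gene. How reads with several matches were counted is not stated, so part of each count is uncertain.

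The libraries held 20581013 to 35083751 counts, with a median of 26354926. Both genes were well above the detection floor of 3 counts in every library: Clca4a had 1287 to 9302 counts and Clca4b had 33 to 1621. Replicate 2 of 0% RPS stood apart from the other libraries of its diet, with a mean distance of 63.8 in log2 expression over 12348 genes, compared with 35.1 to 48.3 for the other 19 libraries. Values of the pair that it moved most are given with and without it. The colon surface marker Car1, a carbonic anhydrase, had 70115 to 483922 normalised counts, with a median of 323102. The RNA is from whole tissue, in which fewer cells of a type and less RNA per cell cannot be told apart.

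The levels of Clca4a and Clca4b were compared with those of the 3 other CLCA genes in the table. Per kilobase of exon, Clca4a averaged 1676 normalised counts over the 20 libraries and Clca4b 81.1, so that Clca4a was 20.7-fold higher. Clca1 was the highest of the family in each diet, with 8604 ± 1506 per kilobase (SD, n = 5) at 0% RPS, followed by Clca4a with 1222 ± 1058 and Clca3b with 578 ± 198. The remaining genes were low at 0% RPS, with 48.1 ± 7.21 per kilobase for Clca3a1 and 27.8 ± 17.5 for Clca4b. At 5% RPS, Clca4b averaged 176 ± 204 per kilobase and Clca3a1 37.9 ± 9.50.

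Clca4a varied widely between mice on the same diet. At 0% RPS its normalised counts (counts divided by DESeq2 size factors) were 3558, 9064, 2995, 1025, and 1709 in replicates 1 to 5. At 2% RPS they were 7152, 4745, 1722, 3158, and 5379, and at 5% RPS they were 4078, 6404, 6100, 4228, and 3143. At 10% RPS they were 9118, 3358, 8058, 9013, and 6663. The lowest library was 0% RPS replicate 4 and the highest 10% RPS replicate 1, 8.90-fold apart. Replicate 2 of 0% RPS lay at the level of the highest 10% RPS libraries, and the diets overlapped.

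Clca4b was lower and varied more. Its normalised counts were 91.1, 53.1, 169, 68.5, and 34.2 at 0% RPS. They were 280, 266, 51.3, 108, and 397 at 2% RPS, and 351, 1571, 523, 96.2, and 97.6 at 5% RPS. At 10% RPS they were 85.6, 137, 127, 162, and 192. The 5% RPS libraries fell into 3 high values, led by replicate 2, and 2 values within the range of the 0% RPS diet. The 10% RPS libraries lay close together, and the highest library of all was 45.9-fold above the lowest.

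**Figure D1:**
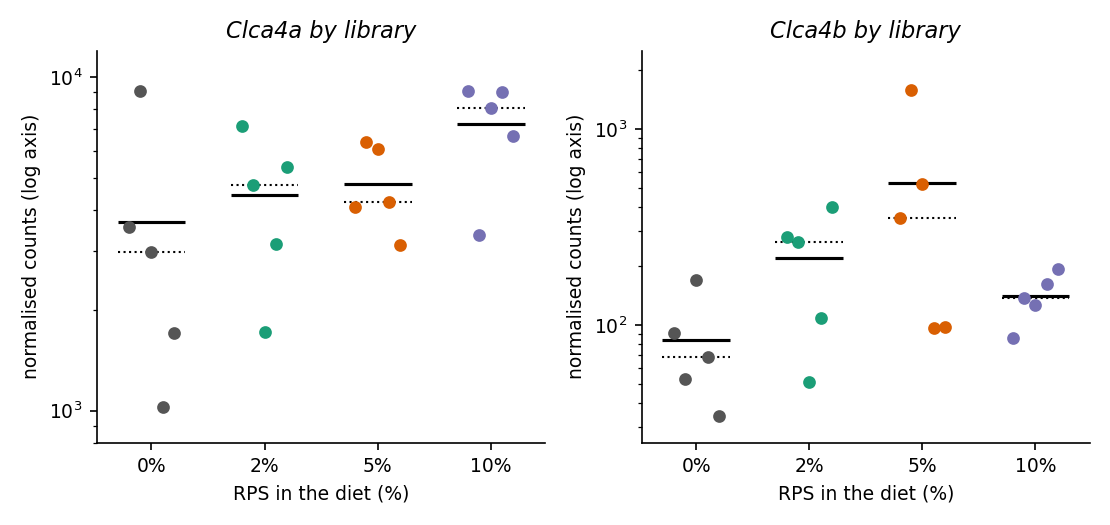
Normalised counts of Clca4a (left) and Clca4b (right) on log axes, with 1 point per library, replicates 1 to 5 from left to right in each diet, the mean as a solid line and the median as a dotted line. For Clca4a, 1 library of the 0% RPS diet lies at 9064, beside the highest 10% RPS libraries, and for Clca4b, 1 library of the 5% RPS diet lies at 1571, above all others.

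The spread within diets was large compared with most genes. The pooled within-diet SD of log2(normalised count + 1) was 0.80 for Clca4a and 1.15 for Clca4b, while the median over the 12348 genes averaging 10 or more normalised counts was 0.15. Larger values were found in 183 genes for Clca4a and in 107 genes for Clca4b. Among genes with a mean within 2-fold of their own, 7 of 1925 exceeded Clca4a and 10 of 2986 exceeded Clca4b. The SD was 0.28 for Clca1, 0.28 for Clca3a1, and 0.40 for Clca3b, so the pair varied more than the other family members in the same libraries. These values belong to the choice of the pair and were not tested.

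The spread of the pair was not the same in each diet. On the log2 scale, the SD of Clca4a was 1.18 at 0% RPS, 0.80 at 2%, 0.43 at 5%, and 0.60 at 10%. For Clca4b it was 0.85, 1.20, 1.70, and 0.44 in the same order. Clca4a thus had its widest spread on the TWD alone and Clca4b at 5% RPS, as described from 5 libraries each without a test. For Clca4a this depended on 0% RPS replicate 2. In normalised counts its SD at 0% RPS was 3179 with that library and 1160 without it, compared with 2083 at 2%, 1401 at 5%, and 2385 at 10% RPS.

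Clca4a and Clca4b were compared between the starch diets and the TWD alone. A gene was called when its adjusted p in DESeq2 did not exceed 0.05 and its level changed at least 1.5-fold. At 5% RPS 1 of the 2 genes was called, Clca4b, where 0.438% of all genes tested were called. That call was known when the pair was chosen, so it is a description and not a result to weigh against this share. At 2% RPS and at 10% RPS 0 of the 2 genes were called, where 0.0239% and 0.9% of all genes were called. In a trend over the percentage of RPS 0 of the 2 genes passed an adjusted p of 0.05, where 4.29% of all genes passed. At an unadjusted p under 0.05, 1 of the 2 genes passed in DESeq2 at 2% RPS (Clca4b), 1 at 10% RPS (Clca4a), and 1 in the trend (Clca4a), where 8.70%, 18.8%, and 19.1% of all genes did so. With edgeR neither gene was called in any of these comparisons.

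The mean level of Clca4a was lowest at 0% RPS, followed by 2, 5, and 10% RPS in order, but no comparison with 0% RPS passed the test. Its normalised counts averaged 3670 ± 3179 (SD, n = 5) at 0% RPS, 4431 ± 2083 at 2%, 4791 ± 1401 at 5%, and 7242 ± 2385 at 10%. Without replicate 2 the mean at 0% RPS was 2321 ± 1160 (SD, n = 4). Each diet overlapped with the next. The log2 fold change in DESeq2 was 0.27 ± 0.46 (SE) at 2% RPS (adjusted p = 0.897), 0.38 ± 0.46 at 5% (adjusted p = 0.706), and 0.98 ± 0.46 at 10% (adjusted p = 0.217). The 95% interval of the last value was 0.07 to 1.89 before adjustment.
The 10% RPS value was smaller with 0% RPS replicate 2, a library of the control diet, than without it. Of the 10% RPS libraries, 1 exceeded the highest 0% RPS library and 4 exceeded every other 0% RPS library. Without 0% RPS replicate 2 the log2 fold change of Clca4a at 10% RPS was 1.64, and the gene was called (adjusted p = 0.00395). At 2 and 5% RPS it was then 0.93 and 1.05, and the gene was not called (adjusted p = 0.429 and 0.129). Over the omission of each library in turn the value at 10% RPS ranged from 0.74 to 1.64, and the gene was called in 1 of 20 fits. The trend was 0.09 ± 0.04 log2 units per 1% RPS (SE, adjusted p = 0.209), and it was 0.13 without 0% RPS replicate 2 (adjusted p = 0.018).

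Clca4b was highest at 5% RPS and not at the highest dose. Its normalised counts averaged 83.2 ± 52.3 (SD, n = 5) at 0% RPS, 141 ± 39.9 at 10%, 220 ± 140 at 2%, and 528 ± 611 at 5%, in rising order, and neighbours in this order overlapped. The number of libraries above the highest 0% RPS library was 3 at 2% RPS, 3 at 5%, and 1 at 10%. The log2 fold change in DESeq2 was 1.41 ± 0.68 (SE) at 2% RPS (adjusted p = 0.538), 2.67 ± 0.68 at 5% (adjusted p = 0.0138), and 0.76 ± 0.68 at 10% (adjusted p = 0.561). The 95% interval was 1.34 to 3.99 at 5% RPS and -0.58 to 2.09 at 10% RPS. The trend was 0.07 ± 0.08 per 1% RPS (SE, adjusted p = 0.675), and within the 2, 5, and 10% RPS diets alone its sign was negative, at -0.13 (adjusted p = 0.663).
The increase of Clca4b at 5% RPS depended on the test and on single libraries. With edgeR the log2 fold change was 2.65 and the adjusted p was 0.115, and in a DESeq2 fit of the 2 diets alone the adjusted p was 0.0518. Without 5% RPS replicate 2 the log2 fold change was 1.68 (adjusted p = 0.178). The gene was also not called without 0% RPS replicate 4 (adjusted p = 0.0608), 0% RPS replicate 5 (adjusted p = 0.0726), or 5% RPS replicate 3 (adjusted p = 0.0554). It was called in 15 of 20 fits that left out a library. DESeq2 gave no adjusted p without 2% RPS replicate 5, and over the other 19 fits the log2 fold change was 1.68 to 3.10. Whether Clca4a and Clca4b responded differently to a diet was not tested.

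**Figure D2:**
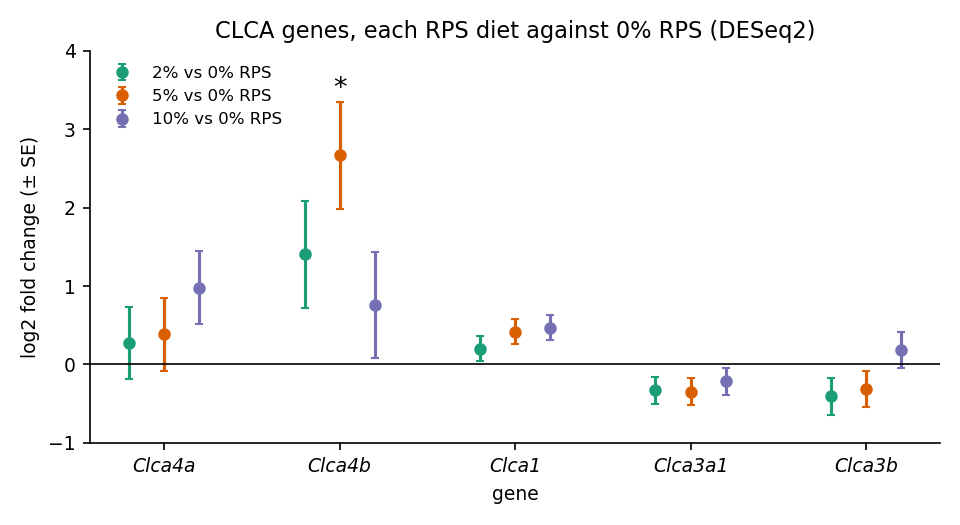
Log2 fold change of each CLCA gene at 2, 5, and 10% RPS against 0% RPS from DESeq2, with points for the estimates, bars for 1 SE, and an asterisk where the gene was called. Clca4b at 5% RPS, at 2.67, carries the only asterisk among the 5 genes, and the bars of Clca4a and Clca4b are the widest.

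The other measured CLCA genes had log2 fold changes between -0.41 and 0.47. Clca1, the mucus protein of goblet cells, had log2 fold changes of 0.20, 0.41, and 0.47 at 2, 5, and 10% RPS, and the lowest adjusted p of these was 0.0631 at 10% RPS. In the trend the adjusted p of Clca1 was 0.0577 in DESeq2, and it passed 0.05 in 7 of 20 fits that left out a library. At 10% RPS, Clca1 had 38728 to 51122 normalised counts, and 4 of 5 libraries exceeded the highest 0% RPS library. Clca3a1 had values of -0.33, -0.35, and -0.21, and Clca3b had -0.41, -0.32, and 0.18. None of the 3 genes was called with DESeq2 or edgeR. At an unadjusted p under 0.05 in DESeq2, 2 of them passed at 5% RPS and 1 at 10% RPS, as did 16.6% and 18.8% of all genes. The sign of Clca3b at 10% RPS turned without 10% RPS replicate 5, to -0.06. Clca2 and Clca3a2 were not analysed here.

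The correlation between Clca4a and Clca4b was moderate. Over 20 libraries, Pearson's r of log2(normalised count + 1) was 0.43 and Spearman's rho was 0.33. The pair was selected on this relation, so it carries no test. With each value centred on its diet mean, r was 0.42 and rho 0.55. With normalised counts in place of their log2, r was 0.19, and on the log2 scale without the 2 libraries with the highest Clca4b it was 0.42. The omission of 0% RPS replicates 4 and 5, which lay farthest from the median of Clca4a, gave 0.25. Omission of each library in turn gave 0.34 to 0.56, with the highest value without 0% RPS replicate 2, in which Clca4a was at 9064 and Clca4b at 53.1. The libraries share the count uncertainty described above, since reads from 619 windows match both genes.

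**Figure D3:**
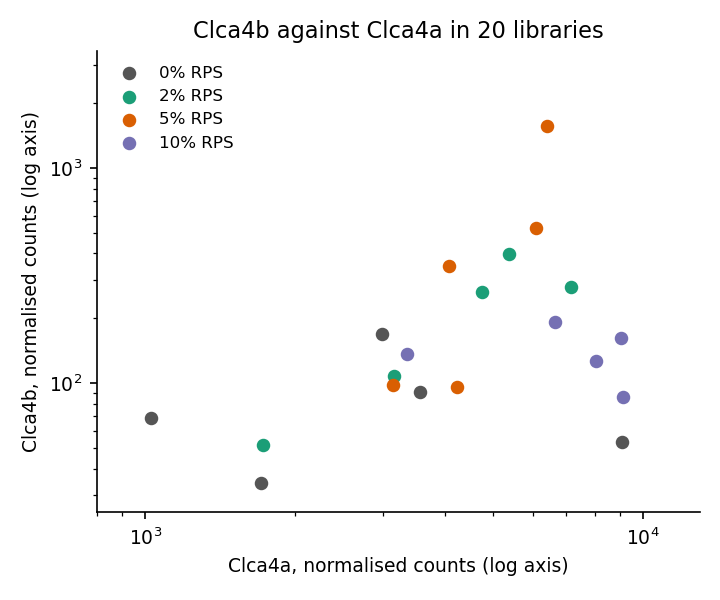
Normalised counts of Clca4b against those of Clca4a on log axes, with 1 point per library coloured by diet (20 libraries). The 5 libraries with the highest Clca4b, 280 to 1571, are of the 2 and 5% RPS diets and have 4078 to 7152 of Clca4a, while the 4 libraries with the highest Clca4a, 8058 to 9118, have 53.1 to 162 of Clca4b.

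Many genes followed either member more closely than its partner did. Among the 12347 other genes averaging 10 or more normalised counts, Clca4b was in place 1640 by r to Clca4a, and Clca4a was in place 1577 by r to Clca4b. The r was 0.8 or more for 22 genes with Clca4a and for 30 genes with Clca4b, whereas the median r over all genes was 0.02 and -0.01.
The ratio of the 2 counts also differed between mice. The count of Clca4b was 0.586% of that of Clca4a in 0% RPS replicate 2 (51 and 8705 counts) and 24.5% in 5% RPS replicate 2 (1621 and 6606 counts), with a median of 3.26% over the libraries. At the share of the lowest library, 5% RPS replicate 2 would have held 38.7 counts of Clca4b. By diet, the median share was 2.56% at 0% RPS, 3.92% at 2%, 8.58% at 5%, and 1.80% at 10%. These shares are a description of the same counts.

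The genes whose pattern was most like that of Clca4a were ranked by Pearson's r over the 20 libraries, and the 10 highest and 3 lowest are named. Ly6m, of the Ly6 family of surface proteins, was the highest at 0.90, followed by the noncoding gene 3100003L05Rik (0.88), Ccdc71l (0.88), and Mxd1, a repressor that competes with Myc for its partner Max (0.87). St6galnac6, a sialyltransferase, Pmp22, a membrane protein of cell junctions and myelin, and Endod1 had values of 0.86 each. Gch1, the rate-limiting enzyme of tetrahydrobiopterin synthesis, had 0.86. Gm36640 and Sprr2a3, a small proline-rich protein of epithelia, had 0.85 each. The lowest were Patz1, a zinc-finger transcription factor, at -0.87, Trdmt1, a tRNA methyltransferase, at -0.86, and Ttc5 at -0.86.
With Ly6m, the normalised counts in 0% RPS replicates 1 to 5 were 742, 5783, 1065, 97.2, and 141, so that replicate 2 was the highest and replicates 4 and 5 the lowest of that diet, as for Clca4a. Without 0% RPS replicate 2, r with Clca4a was still 0.89 for Ly6m, and among all 13 genes it kept its sign and at least 0.83 in size. After centring on the diet means, the r of Clca4a was 0.88 with St6galnac6, the highest of all genes, and 0.86 with Ly6m.

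The genes most like Clca4b were a different set. Mlx, a transcription factor that partners the carbohydrate-responsive factor ChREBP, was the highest at 0.90, followed by Plac8 (0.87) and Mpi, the mannose phosphate isomerase of glycosylation (0.87). Dbnl, an actin-binding adaptor, had 0.87 and Nsf, the ATPase of vesicle fusion, 0.86. Nhp2 and Noc4l, which act in ribosome and snoRNA assembly, had 0.86 and 0.85, and the RNA polymerase subunit Polr2h had 0.84. The palmitoyltransferase Zdhhc3 had 0.84, and Reg3g, a secreted lectin that kills Gram-positive bacteria, had 0.84. The lowest were Atg16l2, related to the autophagy factor Atg16l1, at -0.86, the chromatin protein Vps72 at -0.84, and Zscan2 at -0.83.
Without 5% RPS replicate 2, in which Clca4b was at 1571, r with Mlx was 0.87 and r with Reg3g was 0.87. After centring on the diet means, Reg3g was the highest of all genes, at 0.91. No gene was in both sets of 10, and r with Clca4a was 0.57 for Mlx and 0.61 for Plac8. All these genes were picked as the extremes of 12347 values, so their r carry no test.

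**Figure D4:**
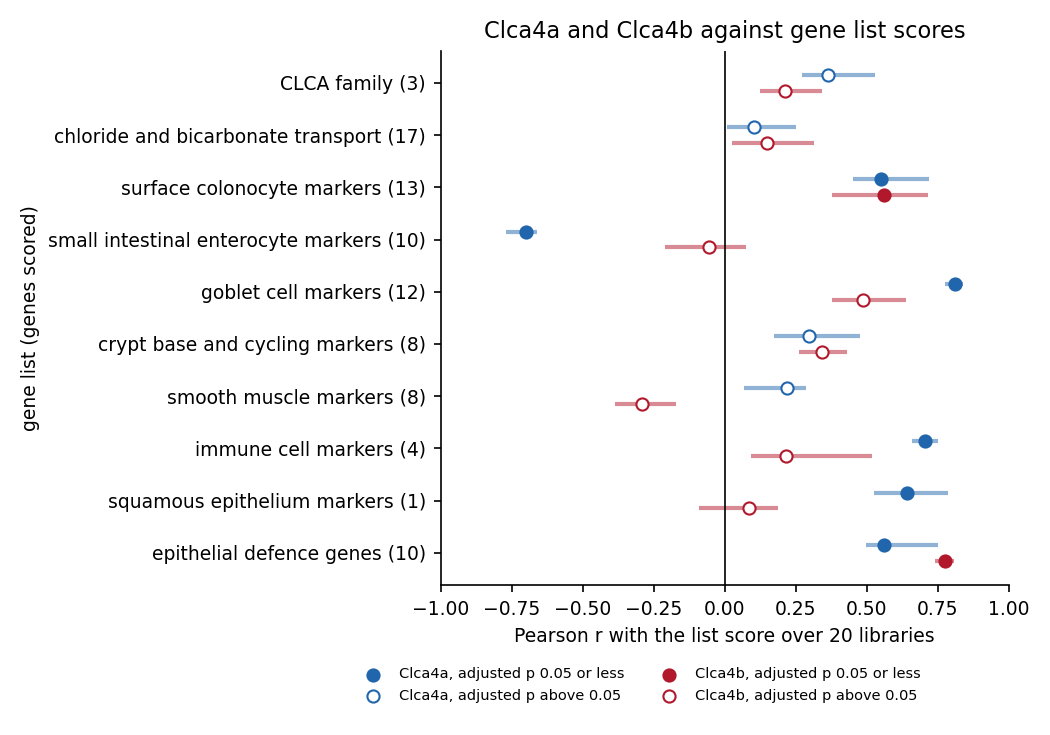
Pearson's r of Clca4a (blue) and Clca4b (red) with the score of each gene list over 20 libraries, with lines from the lowest to the highest r when each library was left out, filled points for an adjusted p of 0.05 or less, and the number of genes scored in brackets. Clca4a has its highest r with the goblet cell list (0.81) and Clca4b with the epithelial defence list (0.78).

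Cell type markers and other gene lists were scored in each library as the mean log2(normalised count + 1) of their members, without the pair, and correlated with each gene. Of 20 correlations, 8 had an adjusted p of 0.05 or less with Pearson's r (two-sided permutation test, 100000 resamples, Benjamini-Hochberg over 20), and 6 of these 8 were of Clca4a. With Spearman's rho 5 passed, after centring on diet 3, and without the 2 libraries farthest from the median score 5. Whether r differed between Clca4a and Clca4b was not tested. The epithelial defence list and Clca4b were both chosen with earlier results of these data known. Their p-values are thus a description and not a blind test.

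Clca4a was higher in libraries with a higher level of goblet cell genes. Its r with the score of 12 goblet cell markers was 0.81 and rho was 0.69 (permutation test, p = 4e-05 and 0.00113, adjusted p = 4e-04 and 0.00565). After centring on diet r was 0.77 (permutation within diets, adjusted p = 0.0272), and without the 2 libraries farthest from the median score it was 0.73 (permutation test, adjusted p = 0.00313). For Clca4b r with the same score was 0.49 and rho 0.52 (permutation test, adjusted p = 0.0679 and 0.0539), and without 0% RPS replicate 2 r was 0.64 (permutation test, adjusted p = 0.00823). Among single markers, r with Clca4a was 0.77 for Spink4, 0.72 for Retnlb, which encodes an antibacterial protein of goblet cells, 0.69 for Ang4, and 0.53 for Muc2, the main mucin of the colon. The list also holds Clca1, with an r of 0.60. All 12 markers had r above 0, and the lowest were Tff3 (0.23), Fcgbp (0.24), and Zg16 (0.36). After centring on diet, r was 0.03 for Tff3 and 0.09 for Fcgbp, compared with 0.83 for Retnlb, 0.70 for Ang4, and 0.69 for Spink4. At 10% RPS, 10 of the 12 markers had a positive log2 fold change, with a median of 0.42 (all genes 0.00), but 0 were called with DESeq2 or edgeR and 7 had an unadjusted p under 0.05, as did 18.8% of all genes. The summed level of the 12 markers was 493600 to 840831 normalised counts at 0% RPS and 610992 to 1102830 at 10% RPS, and no marker was at 0 in any library. The score was highest in 0% RPS replicate 2, at 13.8, and without this library r was 0.79. The part of goblet cells in the level of Clca4a was not tested.

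**Figure D5:**
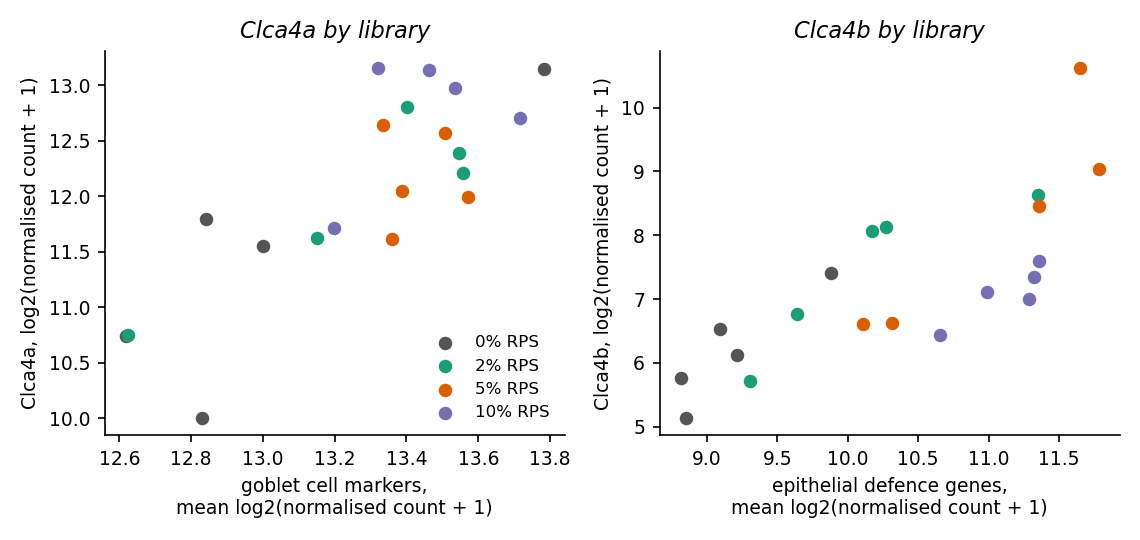
Log2(normalised count + 1) of Clca4a against the goblet cell score (left) and of Clca4b against the epithelial defence score (right), with 1 point per library coloured by diet (20 libraries). Both panels rise to the right, with r of 0.81 and 0.78, and in the right panel the 10% RPS libraries, with scores of 10.7 to 11.4, lie below the 3 libraries of the 5% RPS diet with scores of 11.4 to 11.8.

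Immune and small intestinal markers also varied with Clca4a. With 4 measured immune markers r was 0.70 and rho 0.76 (permutation test, p = 4.7e-04 and 1.3e-04, adjusted p = 0.00313 and 8.67e-04). It was 0.71 after centring (permutation within diets, adjusted p = 0.0306) and 0.65 without the 2 libraries farthest from the median score (permutation test, adjusted p = 0.0126). The B cell gene Cd79a had an r of 0.71, Jchain, the joining chain of IgA, 0.55, and the macrophage gene Adgre1 0.13. The immune score was highest in 0% RPS replicate 2, at 9.93, compared with 8.20 to 8.72 in the other libraries of that diet, and r without this library was 0.71. The summed immune markers were 3794 to 15058 normalised counts at 0% RPS and 4367 to 7247 at 10% RPS, and no marker was at 0. Of the 4 markers 0 were called in any diet with DESeq2 or edgeR, and 1 had an unadjusted p under 0.05, at 10% RPS, as did 18.8% of all genes. The other 8 markers of the list, Ptprc and Cd3e among them, were not analysed here. The part of immune cells was not tested.
With 10 small intestinal enterocyte markers r was -0.70 and rho -0.81 (permutation test, p = 7.2e-04 and 4e-05, adjusted p = 0.0036 and 4e-04). It was -0.67 without the 2 libraries farthest from the median score (permutation test, adjusted p = 0.011) and -0.62 after centring (permutation within diets, adjusted p = 0.11). The protease gene Mep1a had an r of -0.68 with Clca4a and Sis, sucrase-isomaltase, -0.64, whereas the fatty acid-binding protein gene Fabp2 had 0.64. Slc15a1, the peptide transporter of enterocytes, was called lower at 5% RPS (log2 fold change -1.60 ± 0.33 (SE), adjusted p = 8.36e-04, DESeq2) and at 10% RPS (-1.69 ± 0.33, adjusted p = 1.39e-04). Apoa1, an apolipoprotein, was called lower at 10% RPS (-2.81 ± 0.79, adjusted p = 0.0189). In edgeR the adjusted p of Slc15a1 was 0.0645 and 0.0295, and that of Apoa1 0.104. With Clca4a, Slc15a1 had an r of -0.20 and Apoa1 -0.22, and after centring on diet these were 0.38 and 0.13. The median log2 fold change of the 10 markers was -0.21 at 5% RPS and -0.30 at 10%. Their summed level was 34396 to 48400 normalised counts at 0% RPS and 31476 to 49376 at 10% RPS, and no marker was at 0. Their part in the level of Clca4a was not tested.

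The mean score of surface colonocyte markers varied with both genes. With 13 markers r was 0.55 for Clca4a and 0.56 for Clca4b (permutation test, p = 0.0124 and 0.0101, adjusted p = 0.0309 and 0.0289), and rho was 0.54 and 0.49 (permutation test, adjusted p = 0.0527 and 0.0781). After centring neither passed (permutation within diets, adjusted p = 0.201 and 0.116). Without the 2 libraries farthest from the median score neither passed, with r of 0.49 and 0.56 (permutation test, adjusted p = 0.116 and 0.0504). Without 0% RPS replicate 2, r was 0.72 for Clca4a and 0.52 for Clca4b (permutation test, adjusted p = 0.00295 and 0.0465). Without 5% RPS replicate 2, r was 0.55 and 0.38 in the same order (permutation test, adjusted p = 0.0361 and 0.223). The score passed in 16 of 20 fits that left out a library for Clca4a and in 17 for Clca4b. Krt20, a keratin of mature surface cells, had the highest r of the list, 0.80 with Clca4a and 0.70 with Clca4b. With Clca4a, r was below 0 for Cdhr5 (-0.20), Tmigd1 (-0.05), and Ceacam20 (-0.01). With Clca4b, it was below 0 for Aqp8 (-0.13) and Cdhr5 (-0.10). The other markers had r above 0. The acute-phase gene Saa3 had 0.65 with Clca4b and 0.06 with Clca4a, and Car1 0.40 and 0.07. By rank, rho was 0.54 and 0.19 for Saa3 and 0.52 and 0.50 for Car1, in the same order. Ceacam1, an adhesion molecule that bacteria bind, was called higher at 10% RPS (log2 fold change 0.60 ± 0.13 (SE), DESeq2 adjusted p = 9.44e-04, edgeR adjusted p = 0.034). The medians of the 13 markers were 0.20, 0.23, and 0.31 at 2, 5, and 10% RPS.

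Clca4b was higher in libraries with a higher level of epithelial defence genes. This list holds Reg3 lectins and the hydrogen peroxide system of Duox2, Duoxa2, and Lpo, and includes genes that the study named from these samples, so its direction is not independent evidence. Over 10 genes r was 0.78 and rho 0.81 for Clca4b (permutation test, p = 4e-05 and 1e-05, the latter the smallest that 100000 resamples can give, adjusted p = 4e-04 and 2e-04). After centring on diet r was 0.89 (permutation within diets, adjusted p = 4e-04), and without the 2 libraries farthest from the median score it was 0.72 (permutation test, adjusted p = 0.0031). Among the genes, r with Clca4b was 0.84 for Reg3g, 0.83 for Mal, 0.81 for Reg3b, 0.68 for Reg3a, 0.67 for Zbp1, and 0.63 for Duox2, while the IgA receptor gene Pigr had 0.02.
For Clca4a the r with the defence score was 0.56 and rho 0.45 (permutation test, adjusted p = 0.0289 and 0.106), and 0.32 after centring (permutation within diets, adjusted p = 0.272), while without the 2 libraries farthest from the median score it was 0.75 (permutation test, adjusted p = 0.0031). In 0% RPS replicate 2 the defence score was the lowest of all libraries, at 8.81, with Clca4a at 9064, and without this library r with Clca4a was 0.75.

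Reg3g showed the same libraries as Clca4b at the top. Its normalised counts were 18701, 19545, 21349, 1425, and 1490 in the 5% RPS libraries, in replicate order, so that replicates 1 to 3 were high for both genes and replicates 4 and 5 low for both. At 2% RPS they were 3871, 2471, 279, 798, and 14926, with the highest value in replicate 5 and the lowest in replicate 3, again as for Clca4b. At 10% RPS they were 3852, 5691, 7613, 8542, and 11165, while Clca4b was at 85.6 to 192. In replicates 2 to 5 of that diet Reg3g thus exceeded 4 of the 5 libraries on 2% RPS, whereas Clca4b was below its 3 highest 2% RPS libraries in all 5.
Most of the defence genes were called at 5 and at 10% RPS. Of 10 genes, 8 were called higher at 5% RPS and 9 at 10% RPS with DESeq2, where 0.438% and 0.9% of all genes were called. These counts follow from the choice of the list and are not a result to weigh against those shares. With edgeR 2 and 3 were called, where 7 and 40 of all 12366 genes tested were called. At 2% RPS 0 were called with either tool, and 6 had an unadjusted p under 0.05, as did 8.70% of all genes. Pigr was called at no dose, and Ido1 was not called at 5% RPS. At 5% RPS the log2 fold changes in DESeq2 were 4.71 ± 0.90 (SE) for Reg3b (adjusted p = 2.64e-04), 4.22 ± 0.98 for Reg3g (adjusted p = 0.00481), 2.17 ± 0.51 for Reg3a (adjusted p = 0.00577), and 1.81 ± 0.35 for Mal (adjusted p = 2.64e-04). Duoxa2, Duox2, Zbp1, and Lpo had 1.87, 1.25, 1.08, and 0.95. At 10% RPS the values were 4.06 for Reg3b, 3.46 for Reg3g, 2.13 for Reg3a, 1.90 for Duoxa2, 1.28 for Mal, 1.25 for Duox2, 1.21 for Lpo, 1.18 for Ido1, and 1.05 for Zbp1, with adjusted p from 2.59e-10 for Lpo to 0.019 for Reg3g and Duoxa2. The summed level of the 10 genes was 58485 to 79981 normalised counts at 0% RPS, 84154 to 223354 at 5%, and 92138 to 175923 at 10%, so that neither of the higher doses overlapped with 0% RPS. The medians of the list were 1.53 at 5% RPS and 1.27 at 10%, compared with -0.01 and 0.00 over all genes. These comparisons share the 0% RPS libraries with those of Clca4b.

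Chloride and bicarbonate transport, the setting in which CLCA proteins were first studied, held genes that varied with the pair in both directions. The mean score of 17 genes had r of 0.10 with Clca4a and 0.15 with Clca4b (permutation test, adjusted p = 0.741 and 0.621). Ano1, the channel that CLCA proteins can act on, had r of 0.00 with Clca4a and -0.22 with Clca4b, and Cftr, the chloride channel of cystic fibrosis, had -0.30 and -0.34. With Clca4a, Slc26a3, the chloride and bicarbonate exchanger of the colon, had 0.53 and 0.86 after centring on diet, and the potassium channel gene Kcnn4 had 0.53, while Slc12a2, the cotransporter that loads cells with chloride, had -0.52 and the potassium channel gene Kcnq1 -0.61. With Clca4b, Clcn3 had 0.50, Ano6 -0.52, and Ano10 -0.59. These single values were not tested. Of the 17 genes 0 were called in any diet with DESeq2 or edgeR, and 1, 2, and 6 had an unadjusted p under 0.05 at 2, 5, and 10% RPS, as did 8.70%, 16.6%, and 18.8% of all genes. Their median log2 fold changes were 0.02, -0.06, and 0.02.

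The remaining lists passed the test in 1 case. The single measured squamous gene, Sprr1a, had r of 0.64 with Clca4a and 0.09 with Clca4b (permutation test, p = 0.00223 and 0.715, adjusted p = 0.00892 and 0.753). The relation with Clca4a rested on the 2 libraries farthest from its median, without which r was 0.45 (permutation test, adjusted p = 0.158). Its normalised counts were 107 to 337 at 0% RPS and 191 to 695 at 10% RPS, and it was not called. Crypt base and cycling markers had r of 0.30 and 0.34 (8 genes, led by Mki67), and smooth muscle markers, led by Myh11, had 0.22 and -0.29 (8 genes). The other CLCA genes had 0.37 and 0.21 (3 genes). For these 3 lists the permutation test gave adjusted p of 0.223 to 0.462, and 0 of their genes were called at any dose with DESeq2 or edgeR. The crypt and cycling score joined genes of opposite sign. With Clca4b, r of the cycling genes was 0.18 (Ccnb1) to 0.64 (Pcna), and r of Axin2, Ascl2, and Smoc2 was -0.37 to -0.24. With Clca4a these ranges were 0.12 (Ccnb1) to 0.57 (Cdk1) and -0.45 to -0.06, and the single values were not tested. At an unadjusted p under 0.05 there were 4 crypt and cycling genes and 0 smooth muscle genes at 10% RPS, and 18.8% of all genes. Of the 8 smooth muscle markers 0 had a positive log2 fold change at 5 or 10% RPS, with medians of -0.33 and -0.20. Their summed level was 133937 to 295936 normalised counts at 0% RPS, 122511 to 189985 at 5%, and 139109 to 231599 at 10%, no marker was at 0, and their part in the results of the pair was not tested.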

How the data were processed

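RNA from 20 segments of mouse proximal colon was prepared as stranded mRNA libraries and sequenced as single reads of 50 bases. Per the labels and the published methods, the authors removed low-quality bases and ambiguous reads, mapped to GRCm39 in the CLC Genomics Workbench, and deposited raw read counts per gene. The annotation, the use of strand, the treatment of reads with several matches and the filter that left 12701 genes are not given in the sources used here. Of these genes, 12682 matched GENCODE M39 by identifier.

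Samples were grouped by the labelled diet. Counts were fitted in R 4.3.3 with DESeq2 1.42.0 over all 20 libraries, with diet as the only term, median-of-ratios size factors, and Benjamini-Hochberg adjustment over all genes tested (12561, or 12321 at 10% RPS after independent filtering and 12545 in the trend). The trend used the percentage of RPS as a number and no fold threshold. edgeR 4.0.16, with its quasi-likelihood test, was the other tool. Other alternatives were TMM factors, filters on or off, shrunken fold changes, fewer diets, and the omission of libraries. Correlations used log2(normalised count + 1) in Python 3.11.15 with SciPy 1.17.1 and NumPy 2.4.6, with 100000 permutations over libraries for the gene lists. A pseudocount of 1 understates the change of low genes. Genes most like either member were the 10 highest and 3 lowest r among genes averaging 10 or more normalised counts. From the lists, called members at 5 or 10% RPS and the most abundant marker of each cell type list were named, and other members were named after their values were seen. Sequences were compared with Biopython 1.88 in windows of 50 bases. The members, lists and tests were chosen with earlier results of these data known. Totals of 20581013 to 35083751 counts put the floor of 3 counts at 0.0855 to 0.146 CPM (counts scaled to a common library total), which covers counting error only. Each library carries its own label number, taken here as 1 mouse. How mice shared cages is not given in the sources used here, so p-values measure the spread between these libraries. The scripts were tested on simulated data.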

Additional observations from a re-analysis of the deposited data

Results flagged for a closer look

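In 2 of 20 groups of 5 libraries (5 CLCA genes in 4 diets), the gap between the highest library and the nearest was above 0.71 of the range of the group, which is Dixon's criterion. Among groups not chosen for their spread, chance marks about 1 in 20. Clca4a and Clca4b were chosen for their spread, so for them this is a description and no test. Clca4b in 5% RPS replicate 2 had 1571 normalised counts, with 96.2 to 523 in the other 4 libraries of the diet and a ratio of 0.711, just above the criterion. On the log2 scale, added after seeing the data, the ratio was 0.39, under it. Without this library the log2 fold change of Clca4b at 5% RPS was 1.68 in place of 2.67, and the gene was not called (DESeq2, adjusted p = 0.178). Clca3a1 in 2% RPS replicate 4 had 177 normalised counts, with 140 to 146 in the other 4 libraries and a ratio of 0.846 (0.83 on the log2 scale). No library of Clca4a met the criterion, 0% RPS replicate 2 with 9064 normalised counts included.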

How the results depend on the processing

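The labels give no batch, and 5 libraries per diet limit each comparison. Over the diet comparisons and correlation of the pair and the counts of genes, 333 of 383 alternative values kept their direction and call, or stayed near the reported value. With edgeR, 0 genes were called at 2% RPS, 7 at 5%, 40 at 10%, and 165 in the trend, in place of 3, 55, 113, and 538 with DESeq2. At an unadjusted p under 0.05, DESeq2 had 1093 genes at 2% RPS. With shrunken fold changes 1, 2, and 7 genes were called at 2, 5, and 10% RPS. Without 2% RPS replicate 5 and 10% RPS replicates 4 and 5, which carry label numbers apart from the rest, 67 genes were called at 10% RPS and 265 in the trend, and within the 2, 5, and 10% RPS diets 144 in the trend. With each library left out in turn, the counts were 1 to 10 at 2% RPS, 24 to 104 at 5%, 62 to 201 at 10%, and 178 to 807 in the trend, the highest 3 without 0% RPS replicate 2.

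The log2 fold change of Clca4b at 5% RPS was 2.65 with edgeR, 0.24 when shrunken (adjusted p = 0.0161, under the fold threshold), and 2.67 in a fit of the 2 diets (adjusted p = 0.0518). It was 1.68 to 3.10 over the 19 fits that left out a library and gave an adjusted p. With each library left out, the value for Clca4a at 10% RPS was 0.74 to 1.64 and for its trend 0.077 to 0.13, the highest in both without 0% RPS replicate 2. Within the 2, 5, and 10% RPS diets the trend was -0.13 for Clca4b and 0.015 for Clca3a1 (-0.014 over all diets). Without the 3 libraries with such label numbers, Clca3b had -0.25 at 10% RPS and -0.019 in the trend, in place of 0.18 and 0.029, and -0.058 to 0.37 at 10% RPS with each library left out. The r of the pair was 0.33 by rank, 0.19 without the log, and 0.25 without the 2 libraries farthest from the median of Clca4a, the last chosen after seeing the data. Of the list correlations, also repeated after seeing the data, 5 passed by rank, 3 after centring, 5 without the 2 farthest libraries, and 4 (without 0% RPS replicate 4) to 10 (without 0% RPS replicate 2) with each library left out. The causes were not tested. No paired analysis was possible because each library is taken as a separate mouse, and no label number is shared by 2 diets.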
